A study of Mus musculus with 6 samples.

Results

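The STAT and JAK genes described here are 9 of the 53700 genes listed for mouse SL4 cells, and they were taken by gene symbol. They are the STAT genes Stat2, Stat3, Stat4, Stat5a, Stat5b and Stat6 and the kinase genes Jak1, Jak2 and Tyk2. Each symbol named a single Ensembl identifier. RNA-seq compared SL4, a luciferase-expressing line described as mouse colorectal cancer (CRC), with SL4 cells stably overexpressing SEMA6A after lentiviral delivery. The control group (pLV-Control, n = 3 libraries) has no SEMA6A overexpression, and the sources do not state whether its sequenced cells carried an empty vector. The pLV-SEMA6A group (n = 3 libraries) is described as 1 stable line, so an effect of SEMA6A and a difference between lines cannot be told apart. Nothing states that the libraries came from separate cultures. The p-values set the difference between the groups against the spread between these libraries, which may be technical.

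Sema6a, the overexpressed gene, was listed at 0 TPM in every control library. The pLV-SEMA6A libraries had 98.7, 118 and 112 TPM of it. TPM divides each gene's signal by the length of its transcripts and brings libraries to a common sum, so levels can be set side by side between genes, and it keeps no sequencing depth. The defining epithelial markers Epcam and Cdx2 were listed at 0 in all 6 libraries, and the 8 epithelial markers checked summed to 0.13 to 0.49 TPM per control library and 0.25 to 0.54 TPM per pLV-SEMA6A library. The 6 mesenchymal markers summed to 1043 to 1076 TPM and 1656 to 1703 TPM, respectively, most of it Vim, with 4 of them higher and 2 lower in pLV-SEMA6A. Their part in the results below was not tested. The 8 leukocyte markers summed to at most 2.23 TPM and the 4 endothelial markers to at most 0.22 TPM in any library, and Ptprc, the pan-leukocyte marker, was at 0.04 TPM or less. In bulk RNA, fewer cells of a type and less RNA per cell cannot be told apart.

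Janus kinases (JAKs) sit on the inner side of cytokine receptors. When a cytokine brings receptor chains together, the kinases phosphorylate the receptor and then STAT proteins, which pair, enter the nucleus and bind DNA. JAK1 and TYK2 serve the type I interferon receptor, where STAT2 acts together with IRF9 on interferon-stimulated genes, whereas JAK2 serves receptors such as those for growth hormone and erythropoietin. STAT3 is known for IL-6 family cytokines, STAT4 for IL-12 in lymphocytes, STAT5A and STAT5B for growth hormone, prolactin and IL-2 family cytokines, and STAT6 for IL-4 and IL-13. The mRNA levels given here hold no information on phosphorylation.

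The changes ran from a large fall to a slight rise. Stat2 fell most, Stat5a and Tyk2 fell past the threshold for differentially expressed genes (DEGs), Stat3, Stat5b and Jak2 fell by less, Jak1 rose slightly, Stat6 did not pass the test and Stat4 was listed at 0 throughout. The 12510 genes whose mean reached 1 TPM were tested together on the log2(TPM + 1) scale with limma (trend option), and p-values were adjusted over all of them by the Benjamini-Hochberg method. A gene counted as a DEG when its adjusted p was under 0.05 and its log2 fold change exceeded 0.5 in size. Of the 8 members tested, 6 were lower at an adjusted p under 0.05, where 28.2% of all genes tested were lower, and 1 was higher, where 19.5% were. There were 3 lower DEGs and 0 higher DEGs among the members, against 10.8% and 5.12% of all genes tested. The members' median log2 fold change was −0.40 and that of all genes tested was −0.06. With every library set to a common median, that of all genes shifted by 0.09 to 0.03, and their DEG split changed from 1347 lower and 640 higher to 961 lower (7.68%) and 1002 higher (8.01%). The counts of members called were the same under that scaling, with 6 lower, 1 higher and 3 lower DEGs.

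**Figure D1:**
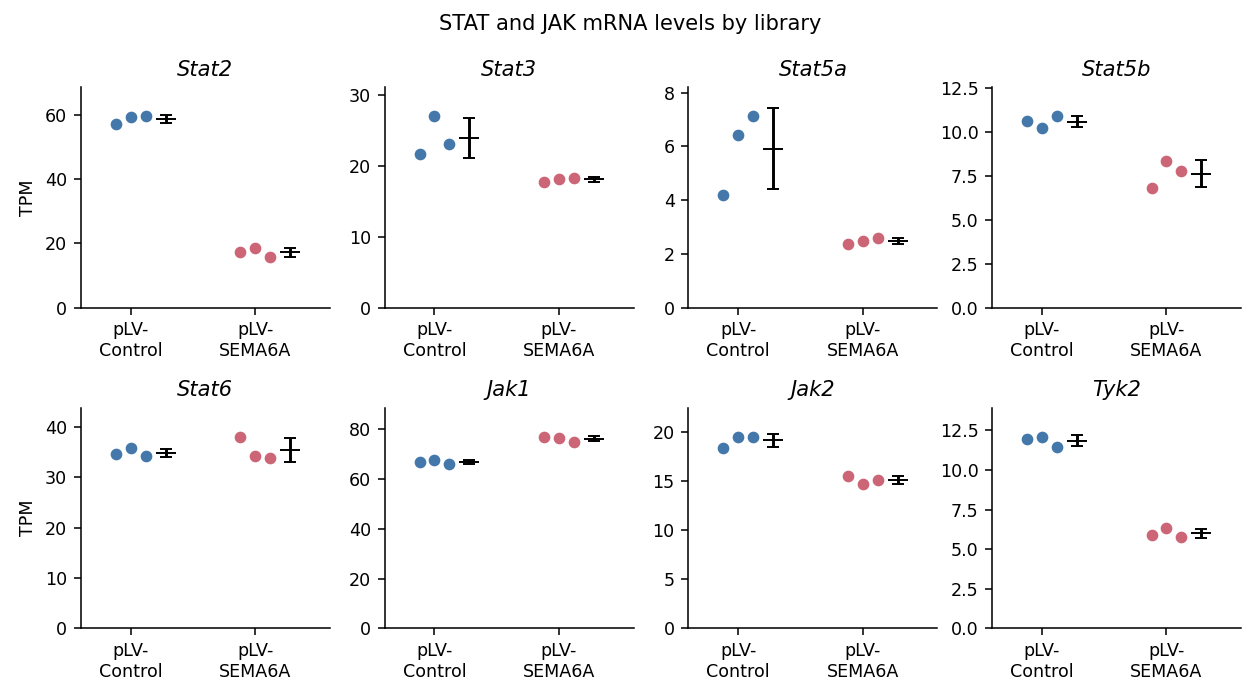
TPM of the 8 expressed STAT and JAK members, with 1 point for each of the 3 pLV-Control (blue) and 3 pLV-SEMA6A (red) libraries and the mean ± SD beside them on axes that start at 0. The groups lie apart in 7 of the 8 panels, as they do for 58.5% of all genes tested, and overlap for Stat6.

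Stat2, which acts in type I interferon signalling, lies on chromosome 10, as does Stat6, with 27 protein-coding genes between them in GENCODE M21. Among the members tested, Stat2 had the largest fall and Stat6 the change nearest to 0. The 250 bases before each RefSeq start are therefore shown together, from GRCm38.p6, at chr10:128270248-128270497 for Stat2 and chr10:127642736-127642985 for Stat6, both on the + strand and 5′ to 3′. Capitals mark every match to the 2 motifs with a match in any member, described below.
Stat2: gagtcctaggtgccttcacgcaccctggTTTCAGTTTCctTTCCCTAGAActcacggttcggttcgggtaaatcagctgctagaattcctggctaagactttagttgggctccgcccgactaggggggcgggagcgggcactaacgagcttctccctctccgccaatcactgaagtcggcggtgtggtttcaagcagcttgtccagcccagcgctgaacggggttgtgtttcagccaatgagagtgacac
Stat6: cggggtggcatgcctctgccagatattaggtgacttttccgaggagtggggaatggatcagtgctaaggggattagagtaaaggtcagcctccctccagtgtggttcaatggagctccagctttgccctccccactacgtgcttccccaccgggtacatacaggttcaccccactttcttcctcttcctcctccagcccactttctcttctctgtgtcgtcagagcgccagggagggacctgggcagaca

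All 9 members matched RefSeq promoter entries, 12 promoters in all, each reaching from 250 bases before to 50 bases after a start. They were searched on both strands for GAAANNGAAA, the interferon-stimulated response element, which STAT2 and IRF9 complexes are known to bind, and for TTCNNNGAA and TTCNNNNGAA, the spacings known for STAT dimers. GAAANNGAAA was found in 2 members. Stat2 held TTTCAGTTTC, its reverse-strand form, at positions −222 to −213 from the start, and 1 of 2 Stat4 promoters held GAAAGTGAAA at −97 to −88. Of all 32851 RefSeq promoters of this length, 1131 (3.44%) held this motif. TTCNNNNGAA was found in Stat2 alone among the members, as TTCCCTAGAA at positions −210 to −201, and in 6.95% of all promoters. TTCNNNGAA was found in no member and in 8.30% of all promoters. The 2 matches in Stat2 lay side by side without overlap. No match to any of these motifs was found in Stat6 or Jak1. None was found either in Stat3, Stat5a, Stat5b, Jak2 and Tyk2, which were all lower in pLV-SEMA6A. Letters that match a motif are a description of this window, not a binding site.

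The pLV-Control libraries held 57.2, 59.2 and 59.6 TPM of Stat2, and the pLV-SEMA6A libraries 17.2, 18.7 and 15.8 TPM. Every pLV-SEMA6A library lay far below every pLV-Control library. The mean went from 58.7 ± 1.29 to 17.2 ± 1.45 TPM (SD, n = 3 each), which left 29.4% of the control level. This was a log2 fold change of −1.71 (SE, the standard error, 0.06, 95% confidence interval −1.86 to −1.56, limma adjusted p = 7.8e-06). It stayed between −1.77 and −1.62 under the 12 alternative settings. Irf9, the DNA-binding partner of STAT2, measured 53.1, 55.6 and 56.6 TPM across the controls against 23.2, 24.4 and 22.1 TPM with SEMA6A. Its 3 pLV-SEMA6A libraries also lay below all controls, with a log2 fold change of −1.21 (SE 0.05, limma adjusted p = 1.1e-05). Only 1.89% of the 31-base stretches of Stat2 transcripts occur in other genes of GENCODE M21.

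Stat3, which transmits IL-6 family signals, measured 21.6, 27.0 and 23.0 TPM across the control libraries against 17.7, 18.2 and 18.3 TPM with SEMA6A. The groups did not overlap, and the control libraries were spread more widely (SD 2.79 TPM) than the pLV-SEMA6A libraries (SD 0.35 TPM). The pLV-SEMA6A mean was 75.7% of the control mean. The log2 fold change of −0.38 (SE 0.08, limma adjusted p = 0.0100) was short of the DEG threshold, and under the alternatives it ran from −0.44 to −0.28 with an adjusted p of at most 0.0364.

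Stat4, the IL-12 signal transducer of lymphocytes, was listed at 0 TPM in all 6 libraries and was not tested. TPM gives no detection limit, so a level below what these libraries could detect and no expression cannot be told apart.

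Stat5a and Stat5b encode near-identical proteins and lie next to each other on chromosome 11, with Stat3 on the far side of Stat5a. Stat5a measured 4.21, 6.42 and 7.13 TPM across the control libraries against 2.38, 2.47 and 2.59 TPM with SEMA6A. Its lowest control library still lay above the highest pLV-SEMA6A library. The mean went from 5.92 ± 1.52 to 2.48 ± 0.11 TPM (SD, n = 3 each), or to 41.9% of control. The log2 fold change was −0.97 (SE 0.18, limma adjusted p = 0.00465), and adding 1 to so low a TPM understates the change. Under the alternatives it ran from −1.19 to −0.78 and remained a DEG.

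Stat5b was higher than Stat5a in every library, with 10.6, 10.2 and 10.9 TPM across the controls against 6.78, 8.34 and 7.74 TPM with SEMA6A. The groups did not overlap. The pLV-SEMA6A mean was 72.0% of control, a log2 fold change of −0.43 (SE 0.08, limma adjusted p = 0.00621). This was below the DEG threshold in size. Of the 31-base stretches, 11.5% of those of Stat5a occur in Stat5b and 15.1% of those of Stat5b occur in Stat5a, so the division of reads between this pair is uncertain. Stat3 and Stat5a overlap at their ends on opposite strands over 0.76% and 1.01% of their exonic bases, and whether reads were counted by strand is not stated.

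Stat6, the transducer of IL-4 and IL-13, measured 34.6, 35.9 and 34.3 TPM across the control libraries against 38.1, 34.4 and 33.9 TPM with SEMA6A. The groups overlapped, with 1 pLV-SEMA6A library above all controls and 1 below them. The log2 fold change of 0.02 had a 95% confidence interval of −0.11 to 0.15 (limma adjusted p = 0.789). Without the first pLV-SEMA6A library it was −0.03.

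Among the kinases, Jak1 was the one that rose. Its controls had 66.7, 67.7 and 66.2 TPM, and its pLV-SEMA6A libraries 77.1, 76.4 and 75.1 TPM. All pLV-SEMA6A libraries lay above all controls. The rise was small, to 114% of control, with a log2 fold change of 0.19 (SE 0.03, limma adjusted p = 0.00231) that ran from 0.17 to 0.28 under the alternatives.

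Jak2, the kinase of the growth hormone and erythropoietin receptors, measured 18.4, 19.5 and 19.5 TPM across the control libraries against 15.6, 14.7 and 15.1 TPM with SEMA6A. The groups lay apart. The pLV-SEMA6A mean was 79.0% of control, a log2 fold change of −0.32 (SE 0.05, limma adjusted p = 0.00240), and Jak2 was not a DEG.

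Tyk2, the partner of JAK1 at the type I interferon receptor, measured 11.96, 12.1 and 11.5 TPM across the control libraries against 5.89, 6.34 and 5.78 TPM with SEMA6A. The groups were far apart in relation to their spread. The pLV-SEMA6A mean was 50.7% of control, with a log2 fold change of −0.88 (SE 0.06, limma adjusted p = 1.0e-04) that ran from −0.97 to −0.73 under the alternatives. An antisense gene, 1700084C06Rik, overlaps 8.07% of the exonic bases of Tyk2. It was at most 0.60 TPM in any library, below Tyk2 in each of them, though reads of an antisense pair cannot be told apart where strand is not used. Over the 8 members tested, 7 had groups that did not overlap, as did 58.5% of all genes tested.

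**Figure D2:**
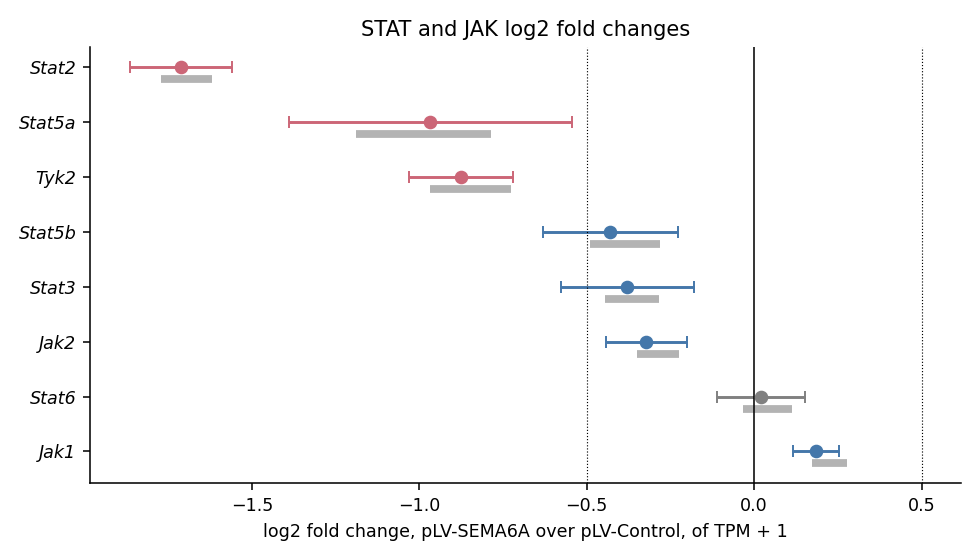
The log2 fold change of each tested member with its 95% confidence interval from limma (points and bars, red for DEGs, blue for other members past an adjusted p of 0.05, grey for Stat6) and, as grey bands, the range over the 12 alternative settings. Dotted lines mark an absolute log2 fold change of 0.5, and Stat2 stands farthest to the left at −1.71.

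The order of the STAT mRNAs differed between the groups. In pLV-Control it was Stat2, Stat6, Stat3, Stat5b and Stat5a from high to low, and no library of one overlapped those of the next. In pLV-SEMA6A Stat6 came first, and Stat3 (18.1 ± 0.35 TPM) and Stat2 (17.2 ± 1.45 TPM; SD, n = 3 each) overlapped behind it, followed by Stat5b and Stat5a, which lay apart. The order of the kinases was Jak1, Jak2 and Tyk2 in both groups, with neighbours apart.

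The summed TPM of the STAT members was 134.0 ± 5.26 in the controls and 80.9 ± 2.18 with SEMA6A (SD, n = 3 each; exact permutation test, two-sided, p = 0.10, the smallest that 3 against 3 libraries allow). The difference in means was −53.1 TPM, of which Stat2 made up 78.0%, Stat3 11.0%, Stat5a 6.48% and Stat5b 5.57%, with Stat6 higher by 0.54 TPM. Stat2 went from 43.8% ± 1.01 to 21.3% ± 1.34 of the STAT sum. Stat6 went from 26.1% ± 0.83 to 43.8% ± 2.33 of it with little difference in its own TPM, and Stat3 from 17.8% ± 1.46 to 22.4% ± 0.96. These 3 shares did not overlap between the groups (exact p = 0.10 each). The shares of Stat5a (4.40% and 3.07%) and Stat5b (7.91% and 9.43%) gave an exact p of 0.20 each.

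The kinase sum differed little, at 97.9 ± 1.30 TPM without and 97.3 ± 1.30 TPM with SEMA6A (SD, n = 3 each; exact permutation p = 0.70). Within it, Jak1 was higher by 9.32 TPM, while Jak2 had a difference of −4.03 TPM and Tyk2 one of −5.84 TPM. Jak1 made up 68.3% ± 0.35 of the kinase sum in pLV-Control and 78.3% ± 0.08 in pLV-SEMA6A. Tyk2 went from 12.1% ± 0.28 to 6.17% ± 0.29 and Jak2 from 19.6% ± 0.59 to 15.5% ± 0.37 (exact p = 0.10 for each of these shares). The shares sum to a whole within a family, so they are not independent of each other.

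**Figure D3:**
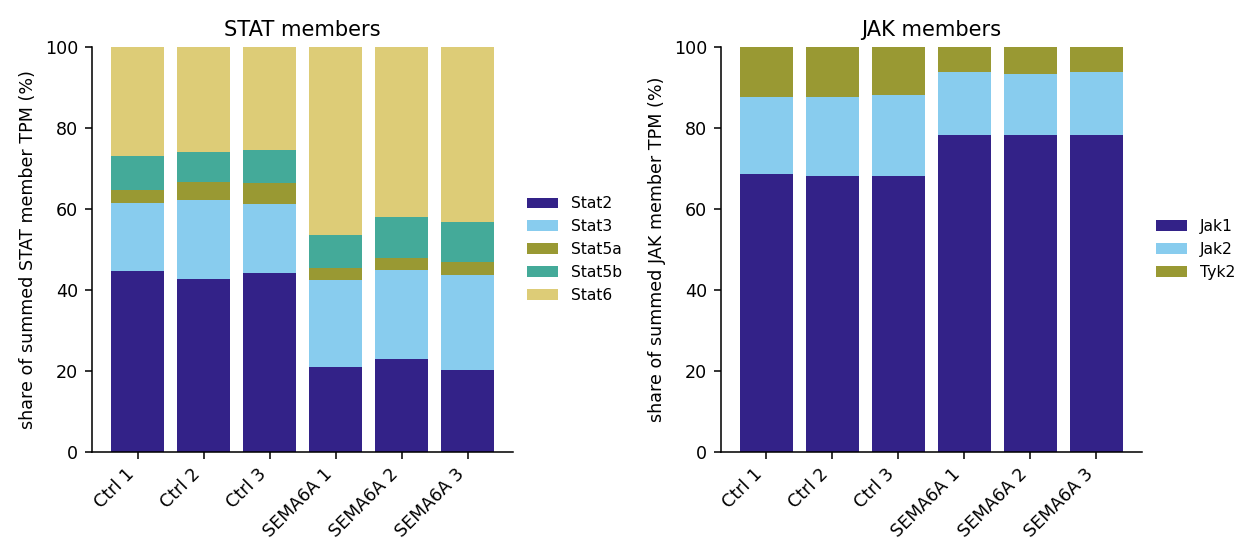
Share of each member in the summed TPM of the STAT members (left) or the JAK members (right), in percent, with 1 stacked bar for each library. The Stat2 segment averages 43.8% in pLV-Control and 21.3% in pLV-SEMA6A, and the Jak1 segment 68.3% and 78.3%. Stat4, listed at 0, is not drawn.

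Paralogs were then compared within each library, as the difference of their log2(TPM + 1), which asks whether members differed between the groups by unequal amounts. Of 13 pairs, 10 among STAT genes and 3 among kinases, 12 had groups that did not overlap. Single genes did so in 58.5% of all tested, the share among pairs of other genes was not computed, and the count is not read as particular to these paralogs. Each of these 12 gave an exact permutation p of 0.10 (two-sided), the smallest the design allows, and 0.108 after adjustment over the 13 pairs, so no pair could pass 0.05. The largest difference between the groups was that of Stat2 and Stat6. On the log2(TPM + 1) scale a pair's group difference is the difference of its members' log2 fold changes, so this ranking restates them. Stat2 was 1.65, 1.65 and 1.74 times Stat6 in the pLV-Control libraries and 0.451, 0.545 and 0.468 times Stat6 in the pLV-SEMA6A libraries. The ratio lay above 1 in every pLV-Control library and below 1 in every pLV-SEMA6A library. On the log2 scale, pLV-SEMA6A minus pLV-Control was −1.73 for this pair.

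Stat2 to Stat3 was 2.65, 2.19 and 2.59 in pLV-Control and 0.973, 1.03 and 0.863 in pLV-SEMA6A, a group difference of −1.33 on the log2 scale. The levels of this pair were close in pLV-SEMA6A. Stat5a to Stat5b was 0.396, 0.628 and 0.655 in pLV-Control and 0.351, 0.296 and 0.335 in pLV-SEMA6A, a group difference of −0.54. The first control library lay near the pLV-SEMA6A libraries here. The pair Stat3 and Stat5b overlapped between the groups and differed by 0.05 (exact p = 0.70), a value that took the other sign when the first library of either group was left out.

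For each kinase pair the groups lay apart. Jak1 was 5.58, 5.59 and 5.78 times Tyk2 in pLV-Control and 13.1, 12.1 and 13.0 times Tyk2 in pLV-SEMA6A, a group difference of 1.06 on the log2 scale. The group difference was 0.51 for Jak1 to Jak2 and 0.55 for Jak2 to Tyk2. Jak1 was the only kinase that rose and Tyk2 the one that fell most, so their ratio necessarily differed most among the kinase pairs.

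**Figure D4:**
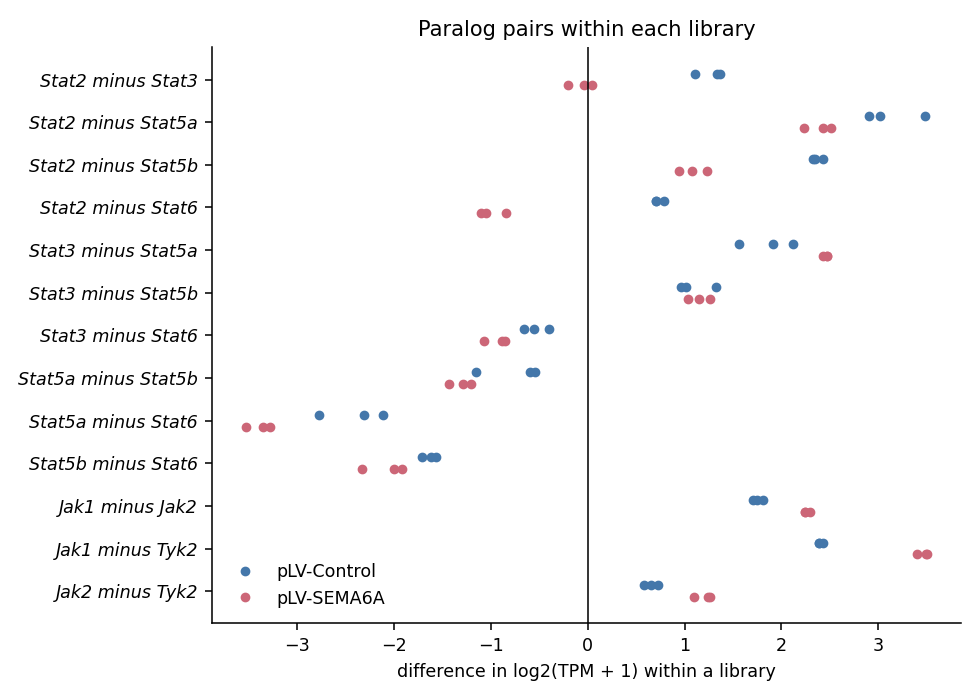
Within-library difference in log2(TPM + 1) of each of the 13 paralog pairs (first gene minus second), with 1 point per library, blue for pLV-Control and red for pLV-SEMA6A. The colours separate in 12 rows and mix for Stat3 minus Stat5b, and the points of Stat2 minus Stat6 lie on opposite sides of 0.

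The wider pathway was described with lists by role, beside all genes tested, of which 28.2% were lower and 19.5% higher, with a median log2 fold change of −0.06. With every library set to a common median those shares were 19.8% and 26.9%. Of 31 cytokine ligands, 13 were listed at 0 in all libraries and 6 could be tested, of which 4 fell and 1 rose (median −0.89), and the single rise is near the share of all genes. Il15, a lymphocyte growth factor, had a log2 fold change of −2.08, with 13.7 ± 1.16 TPM in the controls and 2.51 ± 0.69 TPM with SEMA6A (SD, n = 3 each; limma adjusted p = 9.9e-05). Clcf1, an IL-6 family ligand, was the one that rose, with a log2 fold change of 0.29 (limma adjusted p = 0.0263), and lost that call in 3 of the 12 alternatives. Other IL-6 family ligands did not rise with it. Il11 went from 2.24 to 0.67 TPM (−0.96) and Lif from 3.52 to 1.57 TPM (−0.81), both as DEGs, while Ctf1 did not pass the test. These ligands were named after their values were seen, and Il11 and Lif are low in TPM.

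Of 40 cytokine receptor genes, 17 could be tested, with 8 lower, 3 higher and a median of −0.22, against 28.2% lower and 19.5% higher of all genes. The count of higher receptors is near that share. Among the lower, Ifnar2, a chain of the type I interferon receptor, went from 68.5 ± 3.89 to 43.5 ± 1.07 TPM (SD, n = 3 each; log2 fold change −0.64). Ghr, the growth hormone receptor, and Osmr, the oncostatin M receptor, had log2 fold changes of −0.70 and −0.68. Il6st, the signal chain shared by IL-6 family receptors, was among those that rose, at 0.13, and was named after its value was seen.

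Of 19 brakes on the pathway, 18 were tested, with 7 lower, 3 higher and a median of −0.18, which is near the shares of all genes (28.2% and 19.5%). Usp18, which removes ISG15 and restrains the interferon receptor, had a log2 fold change of −2.27, with 153 ± 5.56 TPM in the controls and 31.1 ± 0.84 TPM with SEMA6A (SD, n = 3 each; limma adjusted p = 4.4e-07). Pias1 and Pias3, inhibitors of STAT proteins, had log2 fold changes of −0.58 and −0.53. Of 8 STAT partners, 3 fell and 0 rose (median 0.08), against 28.2% lower and 19.5% higher of all genes. The count of lower partners is near that share. The 3 that fell were Irf9, Nmi (−1.31), which binds STAT proteins, and Stam2 (−0.20, limma adjusted p = 0.0288). Stam2, an adaptor of cytokine signalling, lost its call in 7 of the 12 alternatives.

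The target lists differed in their counts. Of 17 STAT2-IRF9 targets, 16 could be tested and all 16 fell as DEGs, where 10.8% of all genes were lower DEGs (7.68% with a common median). Their median log2 fold change was −2.38. Oas2 and Oas1a, sensors of double-stranded RNA, had log2 fold changes of −3.97 and −3.67. Reads of Oas1a may be shared with other Oas1 genes. This list was written with earlier results of these data known, so its count is not independent evidence of its direction.

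Of 18 STAT3 targets, 16 were tested, with 8 lower, 3 higher and a median of −0.10, against 28.2% and 19.5% of all genes, and the count of higher targets is near its share. Bcl3, an NF-kappaB cofactor, went from 7.82 to 3.29 TPM (−1.06), and Pim1, a survival kinase, from 33.5 to 17.98 TPM (−0.86), as means of 3 libraries. The 3 higher targets were Ccnd1, which rose as a DEG from 107 to 168 TPM (0.65), Birc5 (0.45) and Timp1 (0.24). These were named after their values were seen. Of 10 STAT5 targets, 7 were tested, with 4 lower, 2 higher and a median of −0.15, against the same shares of all genes. Pim1 and Ccnd1 are on this list too, and Id1, an inhibitor of DNA-binding proteins, rose from 8.37 to 16.4 TPM (0.89). Of 6 STAT4 targets 2 were tested and both fell (median −0.35), and of 18 STAT6 targets 4 were tested and 1 fell (median −0.03). Of all genes 28.2% were lower. The count of lower STAT6 targets is near that share, and 2 STAT4 targets are too few to set against it. The lists overlap in genes such as Pim1, Usp18 and Socs3, so their counts are not independent.

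**Figure D5:**
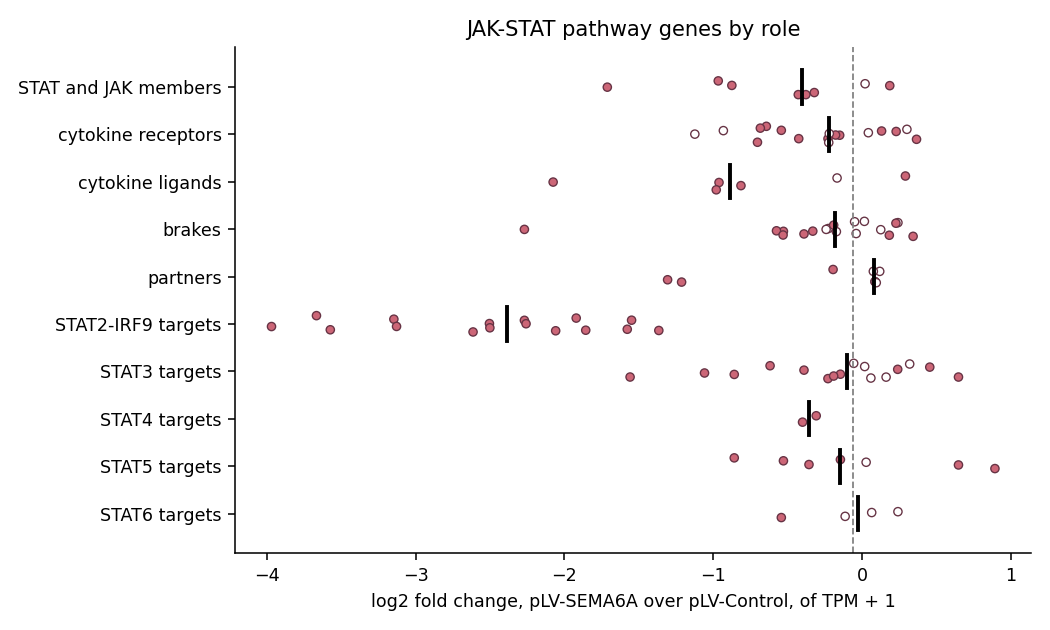
Log2 fold change (pLV-SEMA6A over pLV-Control) of each tested gene by role, filled where the adjusted p from limma was under 0.05, with black bars at the list medians and a dashed line at the median of all genes tested (−0.06). The 16 STAT2-IRF9 targets all lie to the left of 0 around their median of −2.38, while the other target lists lie on both sides of 0, apart from the 2 STAT4 targets, which lie to its left.

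The genes whose log2(TPM + 1) ran most closely with a member over the 6 libraries were found among the 8184 genes whose mean reached 10 TPM. They were Rps15 and Serp1 for Stat2 (Pearson r = 0.9997 each), Cpox and Nupr1 for Stat3 (0.9955 and 0.9947) and Rnf14 and Ier3 for Tyk2 (0.9995 and 0.9993). With 2 groups of 3 libraries, r mostly reflects the step between the groups, and it does not measure the size of that step. Rps15 and Serp1 had log2 fold changes of −0.51 and −0.56, against −1.71 for Stat2.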

How the data were processed

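RNA-seq values were taken from 3 pLV-Control and 3 pLV-SEMA6A libraries of SL4 cells. The authors deposited TPM per gene and library, with group means that were not used. The submitters' processing notes name HISAT, Bowtie2, RSEM and the genome build mm39, without roles or versions, and the study's supplement names DESeq2 for its comparison, which needs counts. Annotation was not given in the sources used here. Of the 53700 identifiers, 52093 (97.0%) occur in GENCODE M21, on GRCm38, which was used for neighbours, exon overlap and shared 31-base stretches. Gene coordinates are not given because the builds differ, and promoters are credited to RefSeq on GRCm38.p6.

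Values were fitted as log2(TPM + 1), a pseudocount of 1, with limma 3.58.1 (trend) in R 4.3.3 over genes whose mean reached 1 TPM, and this step was tested on simulated data. Fold changes are on that scale and understate changes of low genes. TPM keeps no depth, so no detection limit or counting interval was computed. Paralog differences and shares were compared by exact permutation tests in scipy 1.17.1. The fit borrows spread across genes.

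The members, lists and rules were chosen with earlier results of these data known. Named genes were all members, Sema6a, Irf9, up to 3 genes of each receptor, ligand, brake and partner list and up to 2 of each target list, with an adjusted p under 0.05, a mean no lower than 5 TPM and the largest absolute log2 fold changes, and the 2 genes most correlated with Stat2, Stat3 and Tyk2. Alternatives were a pseudocount of 0.1, no filter, 2 other scalings, no trend, the replicate block and leaving out each library.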

Additional observations from a re-analysis of the deposited data

How the results depend on the processing

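The members' counts of 6 lower, 1 higher and 3 lower DEGs held under all 12 alternatives, and 7 of the 8 tested members kept their direction and call in each of them. The exception was Stat6, not past the test in any of them, at −0.032 without pLV-SEMA6A replicate 1 and between there and 0.051 when each library was left out in turn. With the median of each library as the centre, higher DEGs over all genes numbered 1002 in place of 640, and 18 pathway genes were higher in place of 11, with 39 lower in place of 47. When each library was left out in turn, DEGs ranged from 1900 to 1975, pathway genes that were higher from 7 to 9 and lower from 41 to 44, and the lowest of the former came without pLV-Control replicate 1. The Stat3 and Stat5b difference was −0.018 without pLV-Control replicate 1 and −0.0061 without pLV-SEMA6A replicate 1, and its highest value when a library was left out was 0.16. Same-numbered libraries did not deviate together (r of −0.08 to −0.02). No pairing by number was seen, though so few libraries cannot exclude one. Under the replicate block there were 1924 DEGs, 1875 of them shared with the 1987 found without it, and 43 pathway genes were lower and 8 higher. TPM values keep no depth, so how far counting error limits the low values is unknown.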

Other observations

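Several receptor and kinase genes of the pathway were chosen after their values were seen. Il31ra, which encodes a receptor chain that signals through JAK1 and STAT proteins, measured 506, 417 and 297 TPM across the controls against 626, 293 and 639 TPM with SEMA6A, above every member in every library. Il21r, another receptor of the family, measured 70.7, 76.2 and 11.9 TPM across the controls against 29.4, 10.1 and 19.6 TPM with SEMA6A. For both genes the groups overlapped and neither passed the test, and libraries of the same group differed widely. Jak3, the kinase that pairs with the common gamma chain and not a member here, measured 1.39, 1.40 and 1.40 TPM across the controls against 0.29, 0.66 and 0.35 TPM with SEMA6A. Its groups lay apart, but its mean over all libraries was under 1 TPM and it was not tested.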
